A study of Mus musculus with 8 samples.

Results

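The miR-34 and miR-449 family is a set of microRNAs (miRNAs, short RNAs that repress messenger RNAs) encoded at 3 places in the mouse genome and joined by a common seed, the stretch at bases 2 to 8 that pairs with targets. Rows were taken for miR-34a, miR-34b, miR-34c, miR-449a, miR-449b and miR-449c, any arm, wherever they were listed. These 6 names gave 5 of the 452 mature arms in the first deposited table and 5 of the 371 hairpin genes in the second; miR-449b was listed in neither. All 5 listed members stood in both tables and in the set of 185 miRNAs that was tested, out of 198 miRNA numbers shared by the tables.

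The study sequenced small RNA from macrophages that were grown out of mouse bone marrow with the growth factor M-CSF (20 ng/ml equivalent, 3 days). It asked which miRNAs the inflammatory cytokine TNF changes and which depend on RBP-J, the partner on DNA that Notch receptors need to switch on their target genes. The 4 groups were RBP-J knockout with TNF for 24 hours, unstimulated RBP-J knockout, wild type with TNF for 24 hours and unstimulated wild type, with 2 libraries each. All mice were on a mixed C57BL/6/129 background with over 90% C57BL/6. Knockout mice were Rbpjf/f; LysM Cre, in which Cre is expressed from a gene of the myeloid lineage, so cells outside that lineage keep the gene. The wild-type label does not say whether those mice carried the Cre or the floxed allele, and small RNA libraries cannot show whether Rbpj was deleted.

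As background, miR-34a, miR-34b and miR-34c are the classic miRNA targets of p53 and restrain the cell cycle. miR-34a has been tied to weaker osteoclast formation in mice. miR-34b, miR-34c and the miR-449 members are best known from multiciliated epithelium and from testis, and Notch pathway genes such as Notch1 and the ligand Dll1 are among the family's known targets.

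Mature 5′ arms are shown first because all members listed in the first table were 5p arms, and because a common seed is what makes these genes a family. Sequences are from RefSeq (GRCm38.p6), written 5′ to 3′, with the seed in capitals.
miR-34a-5p: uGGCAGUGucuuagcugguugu
miR-34b-5p: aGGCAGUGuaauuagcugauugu
miR-449a-5p: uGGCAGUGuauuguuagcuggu
miR-449c-5p: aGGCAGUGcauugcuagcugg
Of the 5 listed members 4 were matched to a 5p entry of that sequence table; miR-34c-5p was not matched and its seed was not compared. The 4 sequences held 1 seed, GGCAGUG, and no other of the 1738 mature entries had it. Bases beyond the seed were counted without gaps and with the seeds aligned. miR-449c-5p and miR-449a-5p matched at 11 of 14 bases, and miR-34a-5p and miR-449a-5p at 8 of 15. The count was 3 of 14 for miR-34b-5p and miR-449c-5p and 3 of 15 for miR-34b-5p and miR-449a-5p. Such counts miss likeness that is offset by added bases, so they do not rank the pairs. In the sequences shown, the 3′ ends of miR-34a-5p and miR-34b-5p are nearly the same, offset by 1 base. How reads that match more than 1 member were counted is not given in the sources used here.

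The second table has 1 row per hairpin gene. The hairpins of miR-34a, the most abundant member by mean value, and of miR-449a, the member with the largest TNF difference by RPKM in the knockout, are shown with both mature arms in capitals.
Mir34a hairpin: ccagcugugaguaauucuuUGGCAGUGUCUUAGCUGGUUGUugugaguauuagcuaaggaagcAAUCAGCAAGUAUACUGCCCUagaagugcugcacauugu
Mir449a hairpin: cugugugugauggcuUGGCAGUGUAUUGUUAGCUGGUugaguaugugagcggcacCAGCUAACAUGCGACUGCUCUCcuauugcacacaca
In GENCODE M21 (GRCm38), Mir34a lies on chromosome 4 at 150068454 to 150068555, plus strand, and its end overlaps exon 1 of the unclassified transcript Gm37795. Mir34b (51103562 to 51103645) and Mir34c (51103034 to 51103110) neighbour each other on the minus strand of chromosome 9, in intronic sequence of Btg4, which runs on the opposite strand. Mir449a (113037534 to 113037624), Mir449b (113037419 to 113037498) and Mir449c (113035983 to 113036091) lie in intronic sequence of Cdc20b on chromosome 13, plus strand, the same strand as that gene.

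The first table, here the arm table, holds CPM, which are reads scaled to a common library total. The second, here the hairpin table, holds values read as RPKM, which are also scaled to hairpin length. Each table has 1 library of each group. CPM libraries held 321327 to 848650 reads and RPKM libraries about 13574377 to 21712254, so the hairpin table was the deeper. The totals are not alike. Nearly all CPM reads fell on listed rows (848463 of 848650 in knockout with TNF). Of the RPKM totals a smaller part did, and it differed between libraries. It ran from 6647012 of 14892632 reads in unstimulated knockout to 12701596 of 19340687 in wild type with TNF. A pair of libraries stood apart from the rest of their table in the SD of log2 ratios. These were unstimulated wild type of the arm table (1.39 times the SD among the rest) and unstimulated knockout of the hairpin table (1.41 times). Each difference is therefore given within each table. The effect of TNF in either genotype can be read in a table without them, but for the unstimulated knockout against wild type and for the interaction each table holds one of the pair. The myeloid markers miR-223 and miR-142a summed to 11492 to 18837 CPM and 119165 to 183048 RPKM in all libraries, so myeloid markers were present. They do not tell macrophages from other myeloid cells.

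miR-34a was the most abundant member in every arm library (the arms are nearly equal in length) and was lower with TNF than without in the knockout. miR-34a-5p had 101 CPM (86 reads) in knockout with TNF and 227 CPM (80 reads) in unstimulated knockout. It had 106.7 CPM (60 reads) in wild type with TNF and 131 CPM (42 reads) in unstimulated wild type. By hairpin it had 3193 RPKM in knockout with TNF, 4067 RPKM in unstimulated knockout, 2930 RPKM in wild type with TNF and 2671 RPKM in unstimulated wild type. Unstimulated knockout was the highest library in both tables, and the other 3 libraries of each table lay between 101 and 131 CPM and between 2671 and 3193 RPKM. By mean value miR-34a ranked 103 of 329 miRNAs in the arm table and 60 of 350 in the hairpin table.

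miR-34c, its chromosome 9 relative, was the second most abundant member by hairpin. It had 863 RPKM in knockout with TNF, 351 RPKM in unstimulated knockout, 3006 RPKM in wild type with TNF and 1905 RPKM in unstimulated wild type. In the arm table miR-34c-5p had 35.4 CPM (30 reads) in knockout with TNF, 0 reads in unstimulated knockout, 49.8 CPM (28 reads) in wild type with TNF and 3.11 CPM (1 read) in unstimulated wild type. Within each genotype the TNF library was thus the higher one in both tables, and within each treatment the knockout library was the lower one, by 1 read in the unstimulated arm libraries. In unstimulated wild type the tables differed most: miR-34c stood at 71.3% of miR-34a by RPKM but at 2.38% by CPM. With TNF in the knockout these shares were 27.0% and 34.9%. The RPKM shares include hairpin length (77 bases for Mir34c and 102 for Mir34a), which raises miR-34c beside miR-34a. In reads of the unstimulated wild-type hairpin library, miR-34c had 3185 and miR-34a 5915.

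miR-34b shares its locus with miR-34c and was far scarcer. Its hairpin had 23.7 RPKM (27 reads) in knockout with TNF, 7.99 RPKM (10 reads) in unstimulated knockout, 63.4 RPKM (103 reads) in wild type with TNF and 39.5 RPKM (72 reads) in unstimulated wild type. The order of the 4 libraries was that of miR-34c. In the arm table miR-34b-5p had 3 reads (5.34 CPM) in wild type with TNF and 0 reads in the other 3 libraries. That value is the lowest row maximum in the table, whose rows all exceed 5 CPM in at least 1 library. A count of 0 allows up to 3.54 CPM in knockout with TNF (3 reads), 8.50 CPM in unstimulated knockout and 9.34 CPM in unstimulated wild type.

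miR-449a and miR-449c, the members within Cdc20b, had their lowest RPKM value in unstimulated knockout and their highest value of both tables in knockout with TNF. The Mir449a hairpin had 208 RPKM (257 reads) in knockout with TNF, 11.1 RPKM (15 reads) in unstimulated knockout, 206 RPKM (362 reads) in wild type with TNF and 137 RPKM (270 reads) in unstimulated wild type. The knockout library without TNF was far below the other 3. In the arm table miR-449a-5p had 42.4 CPM (36 reads) in knockout with TNF, against 5.66 CPM (2 reads) in unstimulated knockout. Wild-type libraries of that table had 7.11 CPM (4 reads) with TNF and 6.22 CPM (2 reads) without. There, knockout with TNF was the one high library.

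The Mir449c hairpin had 43.9 RPKM (65 reads) in knockout with TNF, 4.93 RPKM (8 reads) in unstimulated knockout, 28.5 RPKM (60 reads) in wild type with TNF and 16.9 RPKM (40 reads) in unstimulated wild type. By 5p arm it had 42.4 CPM (36 reads) in knockout with TNF and 21.3 CPM (12 reads) in wild type with TNF, and 0 reads in both unstimulated libraries. Both TNF libraries were the higher ones in each table. The tables disagreed on the balance of the pair: miR-449a and miR-449c were equal in reads in the CPM library of knockout with TNF, while Mir449a was the higher hairpin in every RPKM library.

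**Figure D1:**
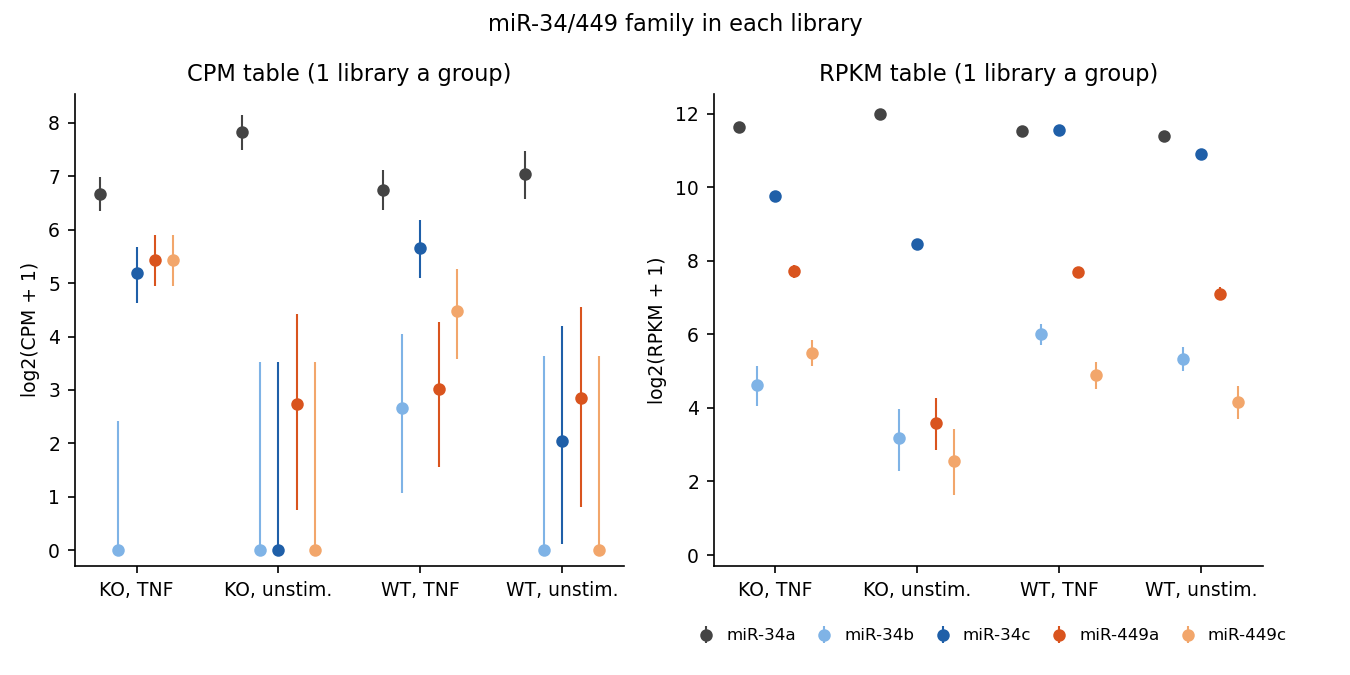
Each point is 1 member in 1 library, as log2(CPM + 1) on the left and log2(RPKM + 1) on the right, for knockout (KO) and wild type (WT) with TNF or unstimulated; bars are exact 95% Poisson intervals of the reads and cover counting error only. miR-34a is highest in unstimulated knockout in both tables (227 CPM and 4067 RPKM), whereas miR-34b, miR-34c, miR-449a and miR-449c are lowest there by RPKM.

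In RBP-J knockout macrophages miR-34c, miR-449a and miR-449c were higher with TNF than without in both tables, and miR-34a was lower. miR-449a was 7.49-fold higher with TNF in the arm table (95% interval 1.93 to 64.2) and 18.8-fold higher in the hairpin table (11.2 to 34.1). miR-449c was at least 4.99-fold higher by CPM, against a limit of 3 reads in the unstimulated library, and 8.91-fold higher by RPKM (4.27 to 21.5). miR-34c was at least 4.16-fold higher by CPM and 2.46-fold higher by RPKM (2.18 to 2.77). The unstimulated knockout hairpin library, one of the pair that stood apart, enters the RPKM ratios and not the CPM ones. The bounds against 0 reads take the TNF count as it stands; with counting error of both libraries the lower limit was 3.86-fold for miR-449c and 3.18-fold for miR-34c. These intervals are Clopper-Pearson intervals on reads of 1 library against 1 library, and they cover counting error and not variation between cultures. miR-34b was 2.96-fold higher by RPKM (1.39 to 6.86), with 0 reads in both CPM libraries. miR-34a went the other way in both tables, at 0.447 times the unstimulated level by CPM (0.326 to 0.614) and 0.785 times by RPKM (0.755 to 0.816). On the log2(value + 1) scale its differences were -1.15 by CPM and -0.35 by RPKM. The medians over all 185 miRNAs were -0.41 and 0.30.

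Across the 2 tables limma gave log2 fold changes, on the log2(value + 1) scale, of 4.18 ± 1.07 for miR-449c, 3.41 ± 1.04 for miR-449a, 3.24 ± 1.09 for miR-34c, 0.73 ± 0.84 for miR-34b and -0.75 ± 0.56 for miR-34a (± is the moderated SE over 2 tables). Where a CPM library had 0 reads, that value depends on the added 1 and is not a bound. No member passed at a Benjamini-Hochberg adjusted p of 0.05 in limma: miR-449c had 0.284, miR-449a and miR-34c 0.294, miR-34b 0.933 and miR-34a 0.886. An unadjusted p under 0.05 was reached by 3 of the 5 members, against 18 (9.73%) of all 185. limma called 0% of the 185, and edgeR's quasi-likelihood test called 0. By size, 3 of the 5 members (miR-34c, miR-449a and miR-449c) were at least 2-fold higher in both tables. That mark was reached by 8.11% of all 185. No member was at least 2-fold lower in both, against 1.08%. The arm table lists miR-34c and miR-449c only through TNF libraries, so the CPM part of their mark is not independent of that listing. Their limma values use those CPM values too. miR-449c ranked 1 and miR-449a ranked 2 of the 185 by the smaller of the within-table changes. DESeq2 on recovered reads called 4 miRNAs (2.16%), all higher, and miR-449a was the 1 member among them (log2 fold change 4.02 ± 1.07, adjusted p = 0.0107).

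The calls in limma depended on which libraries set the spread. When the unstimulated wild-type library of either table or the TNF-treated wild-type hairpin library was left out, miR-34c, miR-449a and miR-449c passed with their fold changes unaltered (adjusted p 0.0141 to 0.0370). miR-449c also passed without the TNF-treated wild-type arm library (0.0334). Without the TNF-treated knockout hairpin library, miR-449c (log2 fold change 5.34) and miR-34c (4.82) passed at 0.0157 and 0.0313. In the 3 remaining fits, without either unstimulated knockout library or without the TNF-treated knockout arm library, no member passed. In those 3 fits the log2 fold change of miR-34c was 1.66 without the TNF-treated knockout arm library, 2.23 without the unstimulated knockout arm library and 4.25 without the unstimulated knockout hairpin library. In the same order miR-449a had 2.91, 4.85 and 1.97, and miR-449c had 3.02, 3.67 and 4.70.

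**Figure D2:**
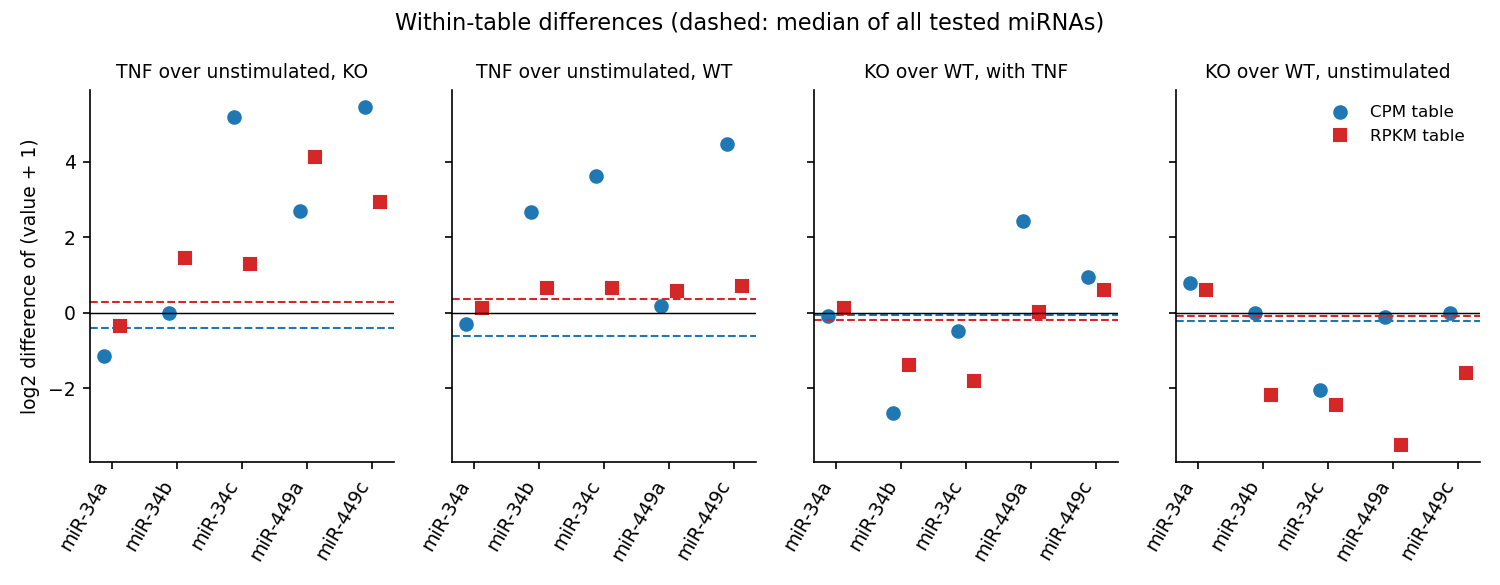
Points are log2 differences of (value + 1) within the arm table (circles) and within the hairpin table (squares) for each member and comparison; dashed lines are the medians over all 185 tested miRNAs in the same table. In the knockout with TNF over unstimulated, miR-34c, miR-449a and miR-449c lie above 1 in both tables, while miR-34a lies below 0 in both.

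In wild-type macrophages the 4 scarcer members were higher with TNF than without by RPKM, each by less than 2-fold: miR-34b 1.61-fold (1.18 to 2.20), miR-34c 1.58-fold (1.51 to 1.65), miR-449a 1.51-fold (1.28 to 1.77) and miR-449c 1.68-fold (1.11 to 2.58). The median log2 difference of all 185 miRNAs in those 2 libraries was 0.37, and those of the 4 members were 0.59 to 0.72, so they lay above the general shift by less than 2-fold. By CPM miR-34c was 16.01-fold higher on 28 reads against 1 (2.65 to 654) and miR-449c at least 2.29-fold higher (lower limit 1.59 with counting error of both libraries), against a median log2 difference of -0.61. miR-449a had a ratio of 1.14 by CPM on 4 reads against 2 (0.164 to 12.6), and miR-34a had ratios of 0.816 by CPM (0.541 to 1.24) and 1.10 by RPKM (1.06 to 1.14).

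limma gave wild-type log2 fold changes of 2.60 ± 1.07 for miR-449c (unadjusted p = 0.0359), 2.14 ± 1.09 for miR-34c, 1.67 ± 0.84 for miR-34b, 0.38 ± 1.04 for miR-449a and -0.08 ± 0.56 for miR-34a. The miR-34b value joins 2.66 by CPM, on 3 reads against 0, and 0.67 by RPKM. That CPM part depends on the added 1, and with counting error the lower limit of the ratio was 0.236. The arm table lists miR-34b, miR-34c and miR-449c only through TNF libraries, so their CPM parts are not independent of that listing. Adjusted p in limma was 0.648 for miR-34b, miR-34c and miR-449c and above that for the rest. None of the 5 members was at least 2-fold higher in both tables, against 2.16% of all miRNAs, or at least 2-fold lower, against 1.62%. limma, DESeq2 and edgeR called 0 miRNAs, and an unadjusted p under 0.05 in limma was reached by 1 of the 5 members, against 12 (6.49%) of all. miR-449c passed (log2 fold change 4.18, adjusted p = 0.0289) when the unstimulated wild-type hairpin library was left out; the baseline was then the wild-type library of the arm table alone, one of the pair that stood apart. The sign for miR-449a turned to -0.73 with the TNF-treated wild-type hairpin library left out, and to -0.45 without the unstimulated wild-type arm library.

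Averaged over genotypes, TNF went with log2 fold changes of 3.39 ± 0.76 for miR-449c (limma adjusted p = 0.0795), 2.69 ± 0.77 for miR-34c (0.159), 1.89 ± 0.74 for miR-449a (0.320), 1.20 ± 0.59 for miR-34b (0.415) and -0.41 ± 0.40 for miR-34a (0.668). miR-449c shared the lowest adjusted p of all 185 miRNAs with miR-155, the inflammatory miRNA, and with miR-129. At least 2-fold higher in both tables were 3 of the 5 members (miR-34b, miR-449a and miR-449c), against 7.57% of all, and miR-34c missed that mark at 0.98 by RPKM. The CPM value of miR-34b (1.33) rests on 3 reads in 1 library and on the added 1, and its averaged log2 fold change was 0.70 with 5 added instead. The arm table lists miR-34b, miR-34c and miR-449c only through TNF libraries, so their higher CPM values with TNF are not independent of that listing. The limma values of these members and the 2-fold count use those CPM values too. limma and edgeR called 0 miRNAs, with 26 (14.1%) at an unadjusted p under 0.05 in limma, 3 members among them, and DESeq2 called 5 (2.70%) with no member among them (adjusted p 0.0522 for miR-449c). For scale, miR-155 had 1075 CPM in knockout with TNF and 156 CPM in unstimulated knockout, and averaged 1.83 ± 0.38. Leaving out 1 library brought miR-449c past the limma threshold in 4 of 8 fits (adjusted p 3.90e-04 to 0.0398). These were the fits without the knockout TNF library of either table, without the TNF-treated wild-type hairpin library and without the unstimulated wild-type library of that table. miR-34c passed in the 3 of those that left out an RPKM library (0.00472 to 0.00619), and miR-449a passed without unstimulated wild type of the hairpin table (0.0398).

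Whether the TNF effect differed between genotypes was tested as an interaction, the effect in knockout minus that in wild type. For miR-449a it was 3.03 ± 1.47 in limma (unadjusted p = 0.0676, adjusted p = 0.987), with 2.54 in the arm table and 3.53 in the hairpin table. The arm value rests on TNF ratios from 36 reads against 2 in knockout and 4 against 2 in wild type. Their 95% intervals, 1.93 to 64.2 and 0.164 to 12.6, overlap. It was the 1 member of 5 with an interaction of at least 2-fold upward in both tables, against 2.16% of all 185, and ranked 1 by the smaller within-table value. It ranged over 1.60 to 4.47 with 1 library left out, the lowest without the unstimulated knockout hairpin library, which stood apart and enters the value of 3.53. miR-449c had 1.58 ± 1.51 (0 to 3.16 with 1 library left out, the lowest without the unstimulated wild-type hairpin library), miR-34c 1.10 ± 1.54, miR-34a -0.67 ± 0.80 and miR-34b -0.94 ± 1.19. For miR-34b the tables disagreed in sign, with -2.66 by CPM and 0.79 by RPKM. Its CPM part rests on 3 reads in wild type with TNF and on the added 1. No miRNA passed in limma, DESeq2 or edgeR, and 1 (0.541%), no member, had an unadjusted p under 0.05 in limma.

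Without stimulation, miR-34a was higher in the knockout library of both tables, while the other members were lower there by RPKM. miR-34a was 1.73-fold higher in unstimulated knockout than in unstimulated wild type by CPM (1.18 to 2.58) and 1.52-fold higher by RPKM (1.47 to 1.58). On the log2(value + 1) scale these differences were 0.79 and 0.61, against medians of -0.23 and -0.08 over all miRNAs. By the smaller within-table value miR-34a ranked 1 of 185 on the higher side. By RPKM the other members stood at 0.0810 times the wild-type level for miR-449a (0.0447 to 0.136), 0.184 times for miR-34c (0.166 to 0.205), 0.202 times for miR-34b (0.0932 to 0.394) and 0.292 times for miR-449c (0.118 to 0.631). The RPKM values rest on unstimulated knockout and the CPM values on unstimulated wild type, the pair that stood apart. For miR-34a the log2 fold change was 0.84 without the second of these and 0.96 without the first, and 0.43 to 0.96 over all fits with 1 library left out. In the arm table these members had 0 to 2 reads in either unstimulated library, so a difference was not detectable at this depth. The interval for miR-449a there was 0.0660 to 12.6 on 2 reads against 2.

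limma gave log2 fold changes of 0.70 ± 0.56 for miR-34a, -2.24 ± 1.09 for miR-34c, -1.81 ± 1.04 for miR-449a, -1.09 ± 0.84 for miR-34b and -0.80 ± 1.07 for miR-449c in the unstimulated knockout. Adjusted p in limma was 0.831 to 0.898. All 3 tools called 0 of 185 miRNAs, and 5 (2.70%), no member among them, had an unadjusted p under 0.05 in limma. At least 2-fold lower in both tables was 1 of the 5 members, miR-34c (on 0 reads against 1 by CPM), against 4.32% of all. With 1 library left out, miR-34c ranged from -3.51 to -0.96 and miR-34b from -1.90 to -0.27, in both cases lowest without unstimulated wild type of the arm table and highest without that of the hairpin table. miR-449a ranged from -3.25 without unstimulated knockout of the arm table to -0.38 without that of the hairpin table. miR-449c ranged from -2.38 without unstimulated wild type of the arm table to 0.78 without that of the hairpin table.

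With TNF present, miR-34b and miR-34c had lower values in knockout than in wild type in both tables, and miR-449a and miR-449c had higher ones. miR-34c had 0.287 times the wild-type level by RPKM (0.267 to 0.308) and 0.710 times by CPM (0.410 to 1.23). miR-34b had 0.373 times by RPKM (0.235 to 0.575) and 0 reads against 3 by CPM, which allows a ratio of up to 1.60. miR-449c had 1.54 times the wild-type level by RPKM (1.07 to 2.23) and 1.99 times by CPM (1.01 to 4.196). miR-449a had 1.01 times by RPKM (0.859 to 1.19) but 5.97 times by CPM (2.14 to 23.1). miR-34a had 1.09 times by RPKM (1.05 to 1.13) and 0.950 times by CPM (0.675 to 1.34).

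For that comparison limma gave log2 fold changes of -2.02 ± 0.84 for miR-34b (unadjusted p = 0.0371), -1.14 ± 1.09 for miR-34c, 1.22 ± 1.04 for miR-449a, 0.78 ± 1.07 for miR-449c and 0.03 ± 0.56 for miR-34a, each with an adjusted p of 1.00. All 3 tools called 0 of 185 miRNAs, and 4 (2.16%), miR-34b among them, had an unadjusted p under 0.05 in limma. At least 2-fold lower in both tables was 1 of the 5 members, miR-34b, against 4.32% of all, and none was at least 2-fold higher, against 1.62%. For miR-34b the CPM part was 0 reads against 3 and depends on the added 1. The arm table lists its row only through those 3 reads, so a lower knockout value there was fixed in advance. The unadjusted p of miR-34b uses that value too. Without the TNF-treated knockout hairpin library miR-34c turned to 0.44, and miR-449c turned to -0.38 with the TNF-treated knockout arm library left out and to -0.15 without the TNF-treated wild-type hairpin library.

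Shares within the family were as follows. In the arm table miR-34a made up 45.7% of family reads in knockout with TNF (95% Wilson interval 38.8 to 52.9, of 188 reads) and 97.6% in unstimulated knockout (91.5 to 99.3, of 82 reads). In wild type it made up 56.1% with TNF (46.6 to 65.1) and 93.3% without (82.1 to 97.7, of 45 reads). By summed RPKM the miR-34a share was 73.7% in knockout with TNF and 91.5% in unstimulated knockout, against 47.0% in wild type with TNF and 56.0% in unstimulated wild type. The miR-34a share was thus lower with TNF in each genotype and table. RPKM shares depend on hairpin length as well as on reads. In wild type with TNF miR-34c had 48.2% of the RPKM sum and miR-34a 47.0%, on 4476 and 5780 reads. The whole family summed to 222 CPM in knockout with TNF and 232 CPM in unstimulated knockout, and to 190 CPM in wild type with TNF and 140 CPM in unstimulated wild type. Its sums by RPKM were 4332 in knockout with TNF, 4442 in unstimulated knockout, 6233 in wild type with TNF and 4769 in unstimulated wild type.

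**Figure D3:**
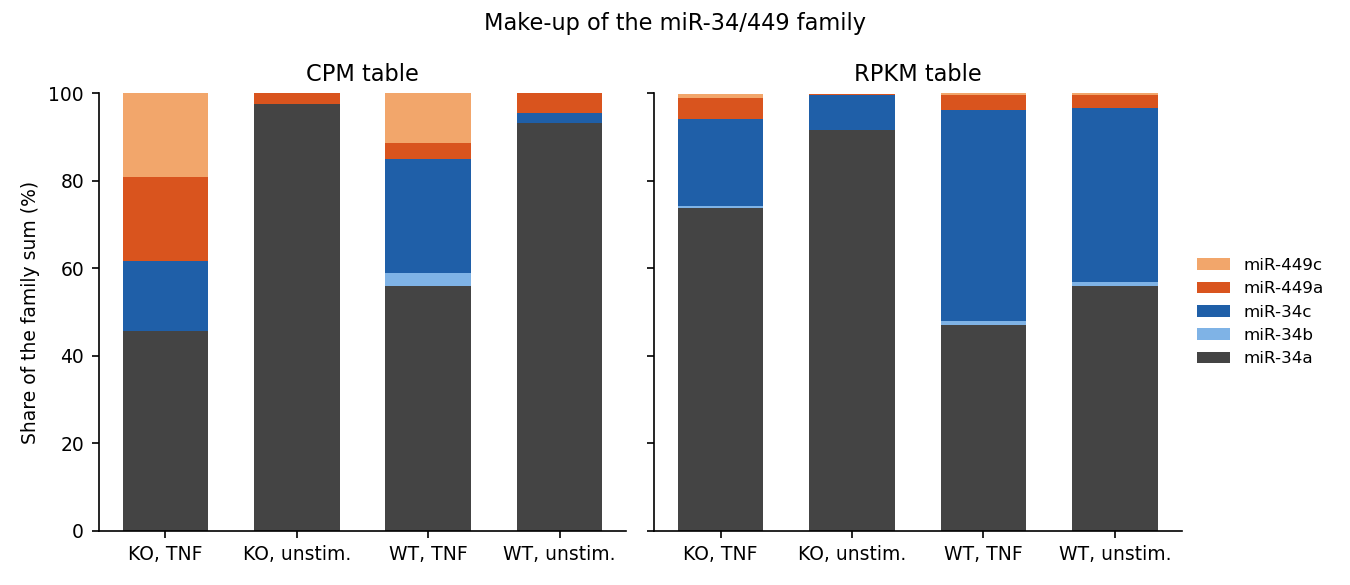
Bars give each member's share of the family sum in percent, by CPM on the left and by RPKM on the right, for 1 library of each group. The miR-34a share is largest in unstimulated knockout in both tables (97.6% by CPM and 91.5% by RPKM).

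Among the other 180 tested miRNAs, those most like each member were found by Pearson's r over the 8 libraries of log2(value + 1) centred within each table. These are descriptions: the points share libraries and depth, and several of the miRNAs have 0 reads in the same CPM libraries. Closest to miR-34c were miR-31 (r = 0.954), miR-129 (0.950) and miR-504 (0.876), and closest to miR-449c were miR-31 (0.950), miR-1930 (0.948) and miR-129 (0.918). miR-31 had 37.7 CPM in knockout with TNF and 39.1 CPM in wild type with TNF, and 0 reads in both unstimulated libraries. By RPKM miR-31 had 701 in knockout with TNF, 186 in unstimulated knockout, 1723 in wild type with TNF and 1150 in unstimulated wild type. Closest to miR-449a were miR-147 (0.845), miR-1945 (0.830) and miR-182 (0.800). miR-34b was most like miR-879 (0.794), miR-129 (0.758) and miR-222 (0.746), and miR-34a most like miR-340 (0.885), miR-128 (0.868) and the myeloid miR-223 (0.859).

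Some marker miRNAs of other cells moved with some of these values in the hairpin table, and others did not. The stromal list (4 of 6 listed) summed to 12282 RPKM in knockout with TNF, 6240 RPKM in unstimulated knockout, 54105 RPKM in wild type with TNF and 20155 RPKM in unstimulated wild type, the same order of libraries as miR-34b and miR-34c. Most of that sum was miR-143, a fibroblast and smooth muscle miRNA, with 11410 RPKM in knockout with TNF and 3380 RPKM in unstimulated knockout, against 51576 RPKM in wild type with TNF and 16593 RPKM in unstimulated wild type. Of the other 3 listed members miR-214 had that order too (89.7 to 503 RPKM), and miR-10b and miR-199a did not. miR-10b had 753 RPKM in knockout with TNF and 2767 RPKM in unstimulated knockout, against 2015 RPKM in wild type with TNF and 3357 RPKM in unstimulated wild type. miR-199a had 3.06 RPKM in knockout with TNF and 4.01 RPKM in unstimulated knockout, against 10.9 RPKM in wild type with TNF and 6.16 RPKM in unstimulated wild type. The epithelial list (8 of 8 listed) had 767 RPKM in knockout with TNF, 461 RPKM in unstimulated knockout, 1283 RPKM in wild type with TNF and 534 RPKM in unstimulated wild type. miR-200a, miR-200b and miR-429 had that order of libraries. With TNF miR-200b was the largest part (384 RPKM in knockout and 833 RPKM in wild type). miR-203 had the order of miR-34c. miR-200c went the other way, at 240 RPKM in unstimulated knockout and 137 RPKM in wild type with TNF. miR-141 was lowest in unstimulated wild type (25.6 RPKM), and miR-205 (7.45 RPKM) and miR-375 (9.21 RPKM) were highest there. In the arm table these lists did not follow miR-34c: stromal sums (4 of 6 listed) were 136 CPM in knockout with TNF and 167 CPM in unstimulated knockout, against 101 CPM in wild type with TNF and 187 CPM in unstimulated wild type. That stromal set holds miR-199b in place of miR-214, so the sums of the tables are not of the same miRNAs. Its largest part was miR-10b (69.4 to 87.1 CPM) and not miR-143 (10.7 to 80.9 CPM). Epithelial sums by CPM were 99.0 in knockout with TNF and 210 in unstimulated knockout, against 97.8 in wild type with TNF and 358 in unstimulated wild type. In that table miR-200a and miR-205 were at 0 in knockout with TNF, and miR-203 and miR-375 in wild type with TNF. The part of other cells in the RPKM differences was not tested, and fewer cells of a type cannot be told apart from less RNA per cell in such bulk samples. None of the 8 germ cell markers was listed in the arm table, and 2 were in the hairpin table, at 1.81 to 6.07 RPKM in sum. Both lymphoid markers were listed, with sums of 962 CPM in knockout with TNF and 2962 CPM in unstimulated knockout, against 1364 CPM in wild type with TNF and 7755 CPM in unstimulated wild type, and 7939 to 17756 RPKM. Nearly all of these sums was miR-342. By CPM miR-150 had 1.18 in knockout with TNF and 37.35 in unstimulated wild type, where miR-342 had 960 and 7718. By RPKM miR-150 was highest in unstimulated knockout (354 RPKM), where miR-342 was lowest (7584 RPKM).

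**Figure D4:**
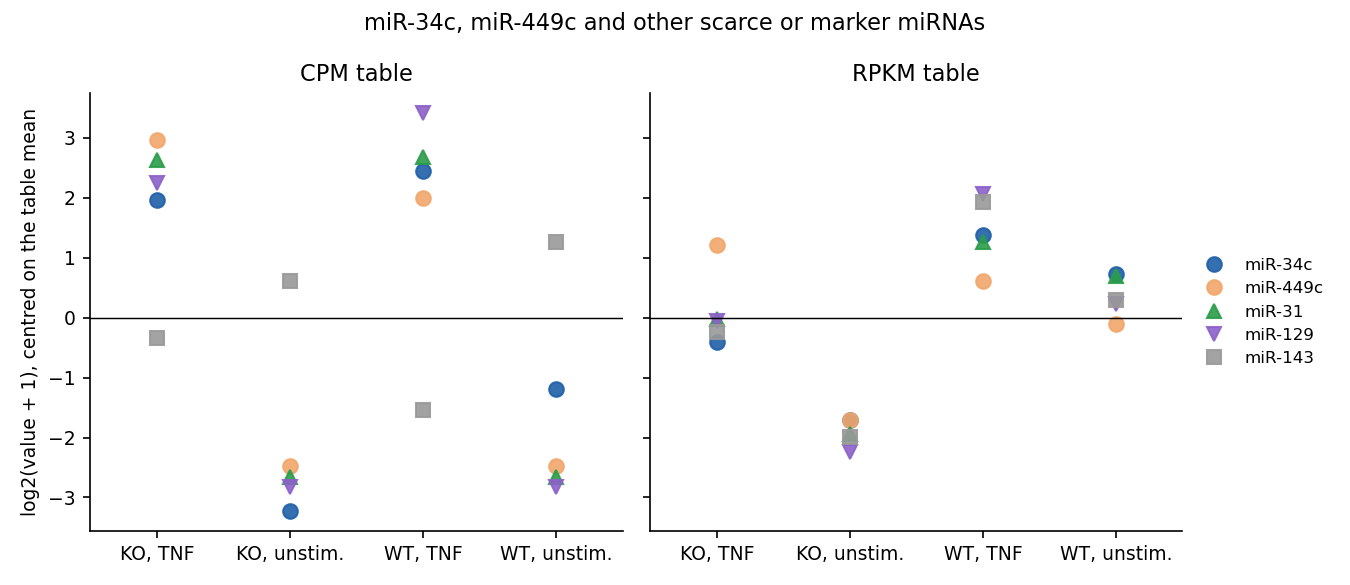
Points are log2(value + 1) centred on the mean of the table's 4 libraries, for miR-34c, miR-449c, the miRNAs closest to them (miR-31 and miR-129) and the stromal marker miR-143. The first 4 are high in both TNF libraries of the arm table, where miR-143 is not; in the hairpin table all 5 are lowest in unstimulated knockout.

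Other miRNAs linked to p53 lay near the median of all miRNAs. Of 10 such miRNAs outside the family, 7 were tested, none was called in limma, and none was at least 2-fold higher or lower in both tables in any of the 6 comparisons. Their median log2 fold change was -0.12 for TNF averaged, against -0.13 over all 185. The highest of them was miR-192 at 0.40 ± 0.35 and the lowest miR-200c, also an epithelial marker, at -1.24 ± 0.74 (limma adjusted p = 0.633 and 0.497).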

How the data were processed

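Small RNA was sequenced from 8 libraries in 4 groups with the Illumina TruSeq small RNA kit, per the labels' protocols. CASAVA 1.8.2 is named in the submitters' processing notes; aligner, counter and genome build are not given in the sources used here. The deposited CPM of the first table were made by the authors from reads of each mature arm, per the file headers and values. Whole reads were recovered from them: 100% of low values (under 30 reads) were whole multiples of 1 read within 0.1 reads. The authors' deposited values of the second table have no named unit and were taken to be RPKM made by the authors from reads per hairpin gene: 94.6% to 95.1% of low values, multiplied by GENCODE M21 length (363 of 371 IDs matched), gave whole reads. No value of that table is 0.

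Arms were summed in the first table and hairpin copies in the second. limma 3.58.1 (R 4.3.3) was fitted to log2(value + 1) of the 185 miRNAs with a mean of at least 5 over the 8 libraries, a mean that RPKM values dominate, with 4 groups and the table as a block; two-sided p-values were adjusted by Benjamini-Hochberg over all 185. Of the 6 members 5 passed this filter, and miR-449b had no row. DESeq2 1.42.0 and edgeR 4.0.16 were run on recovered reads of both tables. The fits were tested on simulated data. Column names carry no replicate number; the tables are named for replicates 1 and 2. Deviations from group means correlated at 0.752 to 0.917 between groups, which includes the change of unit, so the block is the table and not a shared animal. The labels tie no library to an animal or culture of its own; p-values therefore reflect spread among these libraries, part or all of which may be technical. Intervals and floors of 3 reads (95% level) cover counting error only, since reads carry no molecular identifiers. Named miRNAs were every member, the 3 most like each, miR-155, miR-146a and miR-182 for scale, and from the lists the highest and lowest. Members and lists were chosen with earlier results of these data known. For scale, miR-146a had an averaged TNF log2 fold change of -0.50 ± 0.24 and miR-182 of 1.55 ± 0.47 in limma.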

Additional observations from a re-analysis of the deposited data

Results flagged for a closer look

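For miR-449a the knockout and wild-type libraries stood in opposite order with and without TNF. With TNF the log2 difference of knockout over wild type was 2.42 by CPM and 0.02 by RPKM. Without stimulation it was -0.12 by CPM, on 2 reads against 2, and -3.51 by RPKM. The 2 values near 0 are within counting error, and the interaction did not pass in limma (log2 difference of effects 3.03 ± 1.47, adjusted p = 0.987).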

How the results depend on the processing

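In limma 0 miRNAs were called in each of the 6 comparisons, also with a pseudocount of 0.5 or 5, no filter (198 miRNAs), a mean of at least 5 in each table (163), median-of-ratios scaling, rescaling to the listed miRNAs, and without the replicate block (0 in each). DESeq2 called 4 for TNF in the knockout and 5 for TNF averaged, and edgeR 0. Leaving out 1 library gave 0 to 7 calls for TNF in the knockout, 0 to 17 for TNF in wild type, 0 to 26 for TNF averaged, 0 to 6 for the unstimulated knockout and 0 to 2 for the interaction. The highest counts for TNF in wild type (17), TNF averaged (26), the unstimulated knockout (6) and the interaction (2) came without the unstimulated wild-type hairpin library. The highest for TNF in the knockout (7) came without the TNF-treated wild-type hairpin library. For knockout with TNF it was 0 throughout. In these fits the remaining library of a group is assumed to vary like the other groups. Of the 504 values of members under alternatives, 22 newly passed, 21 of them in fits without 1 library. Scaling by median of ratios gave a median over all 185 of 0.01, against -0.10, for TNF in the knockout and of -0.11, against -0.23, for the unstimulated knockout. The sign for miR-34a with TNF in wild type (-0.08) turned under that scaling, in edgeR (0.04) and without either wild-type arm library (0.06 and 0.07), and for the miR-34b interaction (-0.94) it turned in edgeR (0.12). The miR-34c interaction (1.10) reached -0.49 with 1 library left out, and miR-34a in knockout with TNF (0.03) reached -0.25. Scarce members in the arm table (0 to 4 reads in a library) are limited by depth.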
